A study of Mus musculus with 15 samples.

Results

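The Rab genes encode small GTPases that mark and move the membrane compartments of a cell. All genes on the array whose platform symbol was Rab, a number and at most 1 letter were taken, without Rab effectors such as Rab3gap1, and this gave 59 genes, on 62 probe sets, of the 19938 genes measured. Each gene was read from its probe set with the highest mean, and all 59 were tested, since no filter on low values was used. They were measured in magnetically sorted cells of mouse fetal liver, the main site of red cell production before birth. FVB/NJ embryos at stage E14.5 were either wild type (WT) or carried a knockout (KO) of Klf3, which encodes a transcriptional repressor of the Krüppel-like family that binds CACCC boxes. TER119, an antigen of maturing red cell precursors, was the handle of the sort: TER119+ cells were retained on a column and TER119- cells were what passed through a depletion column. There were 4 WT TER119- arrays, 4 KO TER119- arrays, 4 WT TER119+ arrays and 3 KO TER119+ arrays, all Affymetrix MoGene 1.0 ST. Neither the deleted part of Klf3 nor the number of embryos behind a replicate is given in the labels, so the p-values measure only the spread between these arrays. No array value gives the genotype directly: the log2 value of the Klf3 probe set ran from 9.94 to 10.50 in WT TER119+, 10.34 to 10.55 in KO TER119+, 7.94 to 8.80 in WT TER119- and 8.02 to 8.74 in KO TER119- arrays. These ranges overlap within each population, so genotype is as labelled. Sex was inferred from expression: an array was taken as female where Xist was above the mean of Eif2s3y, Kdm5d and Uty, and otherwise as male. A replicate pooled from both sexes would thus be given a single sex. By this rule WT TER119- arrays were 0 female and 4 male and KO TER119- arrays 3 female and 1 male. TER119+ arrays were 2 female and 2 male in WT and 2 female and 1 male in KO.

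As background, a Rab protein works as a switch. An exchange factor (GEF) loads it with GTP on a membrane, where it recruits effectors such as tethers and motors; a GTPase-activating protein (GAP) ends the signal, and GDP dissociation inhibitor then lifts the protein, held there by lipid tails, back into the cytosol. Each compartment carries its own Rabs: Rab5 the early endosome, Rab11 the recycling endosome, Rab7 the late endosome and lysosome, Rab1 the route from the endoplasmic reticulum to the Golgi, and Rab27 the granules of secretory cells and platelets. Red cell precursors take up iron by endocytosis of transferrin with its receptor, and late in maturation they clear their organelles through autophagy and released vesicles.

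All levels are log2 values after RMA, all differences are on that scale, and a gene was said to have risen or fallen where its adjusted p was under 0.05 (limma's moderated test in 1 fit of all arrays, with Benjamini-Hochberg adjustment over all genes). Array values are given in the order of the replicate numbers. The values carry no calls of detection, so dim genes may be at background, and RMA compresses their differences. Probe sets of close relatives, such as Rab1a and Rab1b or Rab5a, Rab5b and Rab5c, may share hybridisation. The sort enriched red cell precursors: the mean of 19 erythroid markers was 8.39 ± 0.14 in WT TER119- and 11.27 ± 0.12 in WT TER119+ cells (SD, n = 4 each), with Slc4a1 at 7.87 and 13.20. It did not give pure fractions. The mean of 26 hepatocyte markers was 6.91 ± 0.84 in WT TER119- and 10.86 ± 0.34 in WT TER119+ cells, that of 18 macrophage markers 5.85 and 8.0, and that of 16 neutrophil markers 9.79 and 5.14. A difference between the populations thus moved with several cell types at once, whose part in it was not tested. In such bulk samples, fewer cells of a type and less RNA per cell cannot be told apart. Among the TER119- arrays, 3 stand apart (replicates 2 and 4 of WT, replicate 4 of KO) on a first component with 54.2% of the variance.

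The first question was which Rab genes differed between the populations. In WT cells 19 of the 59 were higher and 16 lower in TER119+ than in TER119- cells, against 23.5% higher and 29.1% lower over all genes. The share that changed, 59.3%, was near the 52.6% called in all, and the median difference was -0.05 against -0.09 on the log2 scale. Of the 59, 23 were called and changed at least 1.5-fold, 14 upward and 9 downward, against 34.7% of all genes. The arrays of the WT populations did not overlap for 30 Rab genes (background 45.6%). The largest rises were those of Rab35 (log2 difference 2.53), Rab43 (2.38), Rab1b (2.24) and Rab18 (2.04), and the largest falls those of Rab38 (-2.02), Rab9 (-1.94), Rab44 (-1.92) and Rab27a (-1.58).

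**Figure D1:**
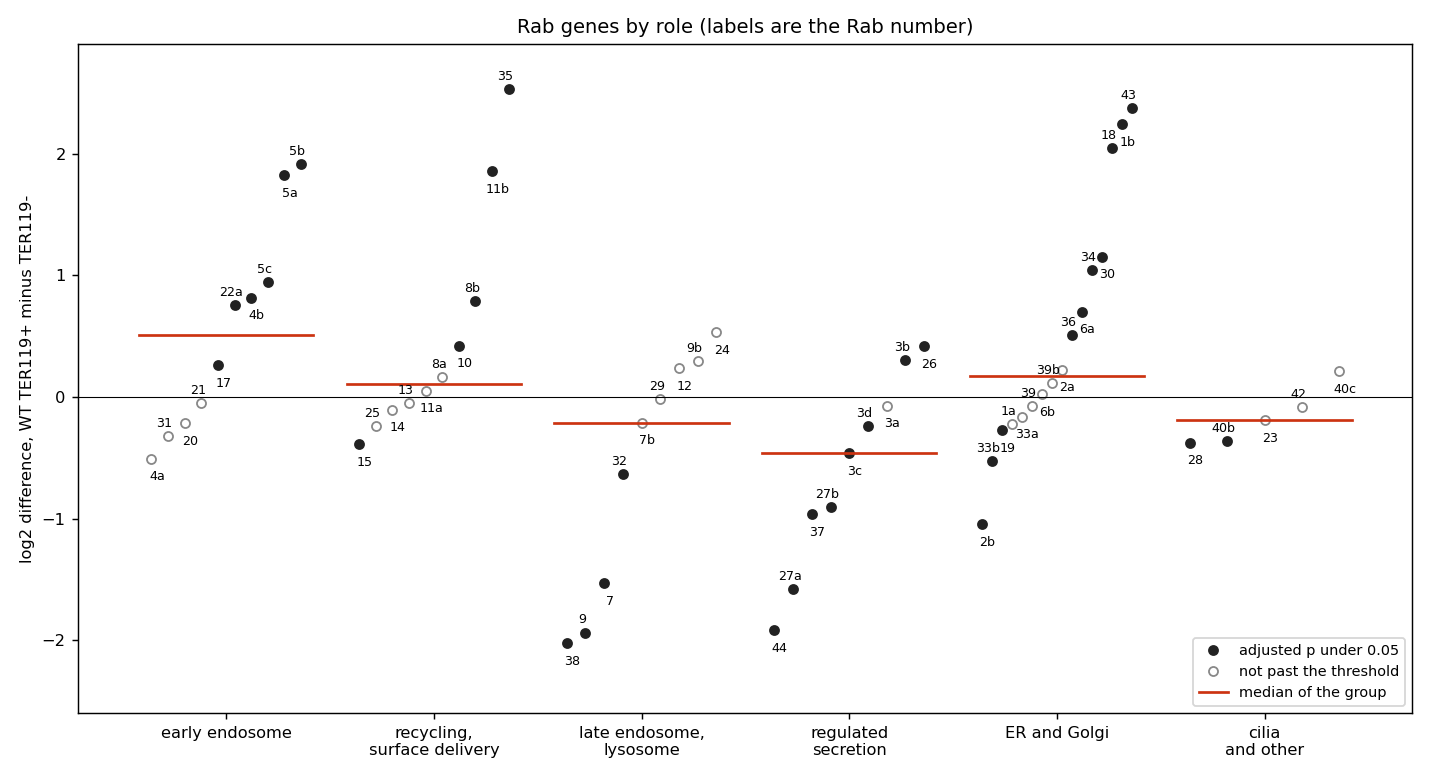
Log2 difference between WT TER119+ and WT TER119- cells (vertical axis) of 59 Rab genes grouped by the compartment they are best known for (horizontal axis). Each point is a gene labelled by its number, filled where the adjusted p was under 0.05, and red lines are group medians, from 0.51 for early endosome genes to -0.46 for genes of regulated secretion.

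The promoters of some of these genes are shown because CACCC boxes are the sites KLF proteins bind and GATAA is the core bound by GATA factors of the red cell lineage. RefSeq promoter windows of build GRCm38.p6 were matched by Entrez identifier to 48 of the 59 genes, with 60 windows. Those without a window include Rab18 and Rab30, among the largest rises, and Rab38, Rab44, Rab37 and Rab27b, among the largest falls. The 250 bases before each annotated start were searched on both strands for CACCC, CCNCNCCC and GATAA, and the first of these can overlap the second. CACCC was found in 68.3% of the Rab windows against 52.0% of the 32851 windows of all genes, CCNCNCCC in 61.7% against 45.9% and GATAA in 12 of the 60 against 22.6%. The median GC content of the Rab windows was 60.2% and that of all windows 52.4%. Among windows of Rab genes that were higher in WT TER119+ cells (19 windows of 15 genes), lower (17 of 12) and not past the threshold (24 of 21), CACCC was present in 68.4%, 64.7% and 70.8%, and GATAA in 36.8%, 17.6% and 8.33%. These shares rest on 7, 3 and 2 windows with GATAA. A match is a run of letters and not a measured site. Windows of Rab1b and Rab5a, which rose, and of Rab9 and Rab2b, which fell, follow 5′ to 3′ with each CACCC or GATAA, on either strand, in capitals.
Rab1b, chr19:5106997-5107246, minus strand: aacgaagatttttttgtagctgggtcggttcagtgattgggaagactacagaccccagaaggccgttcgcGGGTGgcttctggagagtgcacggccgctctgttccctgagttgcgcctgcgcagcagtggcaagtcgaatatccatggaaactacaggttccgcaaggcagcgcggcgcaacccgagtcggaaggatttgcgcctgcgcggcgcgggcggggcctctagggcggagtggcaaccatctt
Rab5a, chr17:53478984-53479233, plus strand: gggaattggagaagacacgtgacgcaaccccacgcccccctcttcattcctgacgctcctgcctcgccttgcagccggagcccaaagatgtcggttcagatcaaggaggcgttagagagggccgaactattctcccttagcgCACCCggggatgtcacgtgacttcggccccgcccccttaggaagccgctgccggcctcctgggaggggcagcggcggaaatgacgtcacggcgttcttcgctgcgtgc
Rab9, chrX:166479868-166480117, minus strand: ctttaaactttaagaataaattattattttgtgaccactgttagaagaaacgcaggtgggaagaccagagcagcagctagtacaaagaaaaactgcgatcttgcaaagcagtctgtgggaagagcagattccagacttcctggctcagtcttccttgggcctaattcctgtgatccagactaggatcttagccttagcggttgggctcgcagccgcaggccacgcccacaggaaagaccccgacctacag
Rab2b, chr14:52279396-52279645, minus strand: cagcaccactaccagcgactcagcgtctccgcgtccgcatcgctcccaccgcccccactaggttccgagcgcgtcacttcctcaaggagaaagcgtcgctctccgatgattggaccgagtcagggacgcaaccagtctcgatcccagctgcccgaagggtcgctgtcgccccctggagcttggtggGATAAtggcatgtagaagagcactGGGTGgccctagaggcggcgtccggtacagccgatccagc
The Rab1b window held 1 CACCC, on the opposite strand, and the Rab5a window 1. Rab9's held neither CACCC nor GATAA but 1 CCNCNCCC, and that of Rab2b held 1 CACCC and 1 GATAA. Not printed are the windows of Rab11b and Rab35, which also rose. That of Rab11b held no CACCC, CCNCNCCC or GATAA, and that of Rab35 held 3 CCNCNCCC but no CACCC or GATAA. Windows with CACCC and windows without it thus each belonged to genes that rose and to genes that fell.

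Among the 10 early endosome genes 6 rose in WT TER119+ cells and 0 fell, with a median difference of 0.51. Rab5a, which drives fusion of incoming vesicles with the early endosome, read 7.73, 7.65, 7.65 and 7.51 in WT TER119-, 9.55, 9.46, 9.44 and 9.38 in WT TER119+, 7.72, 7.70, 7.92 and 7.96 in KO TER119-, and 9.30, 9.46 and 9.40 in KO TER119+. Every TER119+ array was above every TER119- array in both genotypes. The WT difference was 1.82 (SE 0.09, 3.54-fold, adjusted p = 4.55e-11) and the KO difference 1.56 (SE 0.10, adjusted p = 8.53e-10). Rab5b, its close relative, read 7.53, 7.10, 8.02 and 6.40 in WT TER119-, 9.18, 9.17, 9.19 and 9.15 in WT TER119+, 7.93, 8.07, 7.42 and 6.64 in KO TER119-, and 9.30, 9.36 and 9.25 in KO TER119+. Its TER119+ arrays were all higher and nearly level, while its TER119- arrays were spread widely, with WT replicate 4 and KO replicate 4 lowest. It rose by 1.91 (SE 0.30, adjusted p = 3.88e-05) in WT and by 1.79 (SE 0.32, adjusted p = 0.000174) in KO. A second Rab5b probe set gave a WT difference of 1.29. By its number the probe set used falls among genes of chr2, and the second among genes of chr10, where Rab5b's promoter window lies. Positions of probe sets were not given, so the array values above may not be those of the Rab5b locus. Rab5c rose by 0.94, Rab4b, a Rab of fast recycling, by 0.82, Rab22a by 0.76 and the epithelial Rab17 by 0.26 in WT. Rab4a, the other Rab4, had differences below 0 in both genotypes. It read 8.14, 7.05, 8.10 and 7.31 in WT TER119-, 7.14, 7.25, 6.89 and 7.30 in WT TER119+, 8.12, 8.24, 8.31 and 7.58 in KO TER119-, and 7.44, 7.06 and 7.21 in KO TER119+. WT replicates 2 and 4 and KO replicate 4 of the TER119- arrays were low and overlapped the TER119+ range or lay near it. The WT difference was -0.51 (SE 0.22, adjusted p = 0.0662) and the KO difference, which passed the threshold, -0.82 (SE 0.24, adjusted p = 0.00847). Differences of Rab20, Rab21 and Rab31, which did not pass in WT, were -0.22, -0.05 and -0.32.

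**Figure D2:**
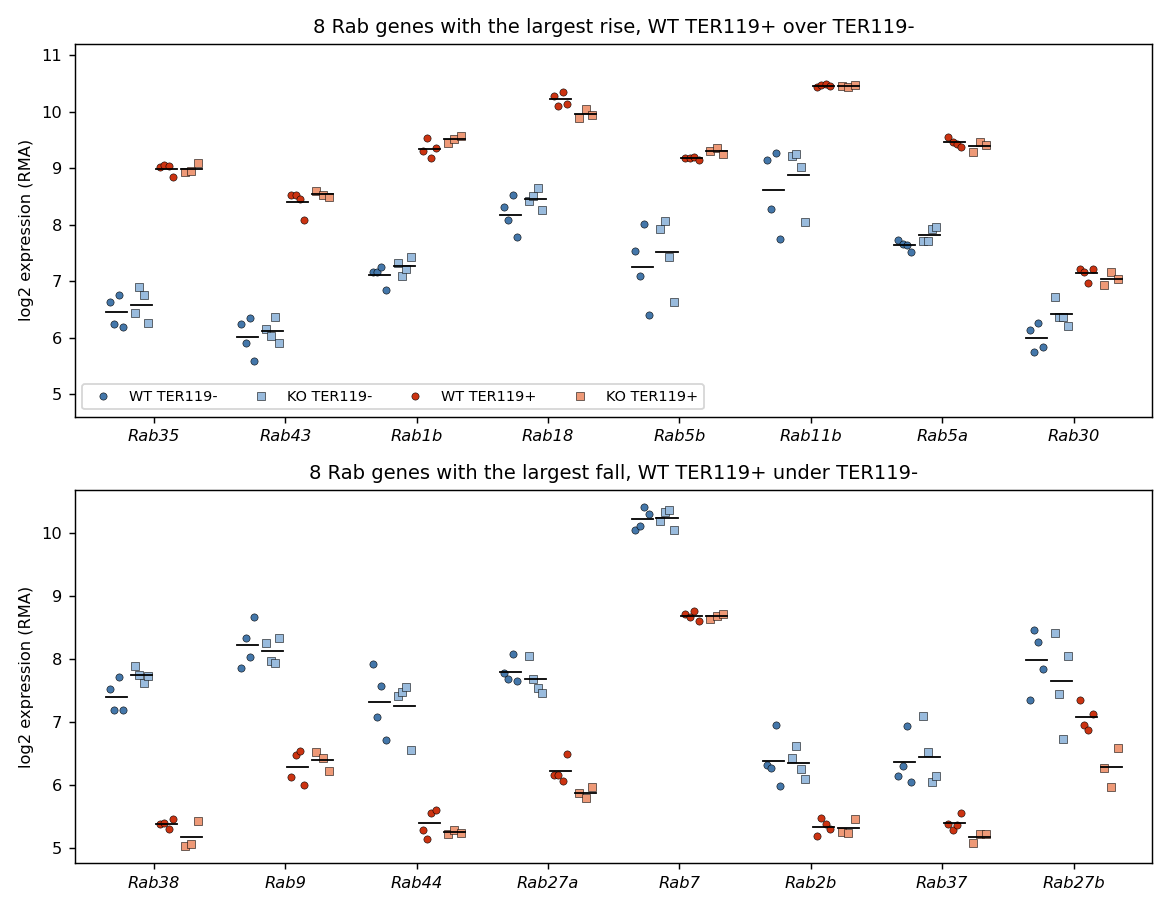
Log2 RMA values (vertical axis) of each array for the 8 Rab genes that rose most (top) and the 8 that fell most (bottom) in WT TER119+ against WT TER119- cells; circles are WT, squares KO, blue TER119-, red TER119+, and bars are group means of 4 arrays (3 for KO TER119+). KO arrays lie beside WT arrays of the same population, and TER119- arrays of Rab11b, Rab5b and Rab27b are the most spread.

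The 10 genes of recycling and delivery to the surface were divided, with 4 higher, 1 lower and a median of 0.11 in WT. Rab35, which returns cargo from endosomes to the plasma membrane, had the largest rise of the family. It read 6.63, 6.24, 6.76 and 6.19 in WT TER119-, 9.02, 9.05, 9.04 and 8.84 in WT TER119+, 6.44, 6.90, 6.75 and 6.26 in KO TER119-, and 8.93, 8.95 and 9.10 in KO TER119+. The lowest TER119+ array was far above the highest TER119- array. The difference was 2.53 (SE 0.15, 5.78-fold, adjusted p = 3.46e-10) in WT and 2.41 (SE 0.16, adjusted p = 1.89e-09) in KO. The paralogs Rab11a and Rab11b, both Rabs of the recycling endosome, are measured by separate probe sets. Rab11a read 9.40, 9.85, 9.85 and 9.62 in WT TER119-, 9.82, 9.60, 9.72 and 9.80 in WT TER119+, 9.93, 9.39, 9.22 and 9.65 in KO TER119-, and 9.76, 9.82 and 9.59 in KO TER119+. All 4 groups overlapped, and the WT difference was 0.05 (SE 0.14, adjusted p = 0.775) with a 95% interval of -0.25 to 0.35. Rab11b read 9.14, 8.28, 9.26 and 7.75 in WT TER119-, 10.43, 10.48, 10.50 and 10.45 in WT TER119+, 9.21, 9.25, 9.02 and 8.05 in KO TER119-, and 10.45, 10.43 and 10.47 in KO TER119+. The TER119+ arrays lay together, and the TER119- arrays that stand apart were the lowest of theirs. Rab11b rose by 1.86 (SE 0.29, adjusted p = 3.92e-05) in WT, while a second probe set with that symbol gave 0.78, so the size of its rise depended on the probe set. By number the brighter probe set, which was used, falls among genes of chr19, and the second among genes of chr17, where Rab11b's promoter window lies. Positions of probe sets were not given, so the array values above may not be those of the Rab11b locus. The place of Rab11b among the largest rises rests on the brighter probe set. Rab8b, which carries cargo to the plasma membrane, rose by 0.79 (SE 0.08, adjusted p = 6.06e-07) and Rab10, a Rab of exocytic vesicles, by 0.42 (SE 0.11, adjusted p = 0.00492), while Rab8a (0.16) and Rab14 (-0.10) did not pass. Rab15 fell by 0.39 in WT and missed the threshold in KO (-0.25, adjusted p = 0.117).

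Of the 9 genes of late endosomes, lysosomes and autophagy 4 fell and 0 rose in WT TER119+ cells, with a median of -0.21. Rab7, which directs late endosomes and autophagosomes to the lysosome, read 10.04, 10.11, 10.41 and 10.30 in WT TER119-, 8.71, 8.67, 8.76 and 8.60 in WT TER119+, 10.18, 10.33, 10.37 and 10.05 in KO TER119-, and 8.64, 8.67 and 8.70 in KO TER119+. The populations were far apart and the arrays of each were close together. It fell by 1.53 in WT, a linear ratio of 0.346 (SE 0.10, adjusted p = 1.29e-09), and its KO difference was -1.56 (SE 0.11, adjusted p = 2.96e-09). Rab9, which returns mannose 6-phosphate receptors from late endosomes to the Golgi, read 7.86, 8.32, 8.02 and 8.67 in WT TER119-, 6.12, 6.47, 6.53 and 6.001 in WT TER119+, 8.25, 7.97, 7.93 and 8.33 in KO TER119-, and 6.52, 6.43 and 6.23 in KO TER119+. No TER119+ array reached a TER119- array, and the differences were -1.94 (SE 0.17, adjusted p = 4.53e-08) in WT and -1.73 (SE 0.18, adjusted p = 4.85e-07) in KO. Rab38 builds lysosome-related organelles such as melanosomes and platelet dense granules. It read 7.52, 7.18, 7.71 and 7.19 in WT TER119-, 5.38, 5.39, 5.30 and 5.45 in WT TER119+, 7.88, 7.74, 7.62 and 7.72 in KO TER119-, and 5.03, 5.06 and 5.42 in KO TER119+. A wide gap lay between the populations. The difference, the lowest of the 59 in WT, was -2.02 (SE 0.12, adjusted p = 7.32e-10) in WT and -2.57 (SE 0.13, adjusted p = 1.25e-10) in KO. Rab32, its partner in the same organelles, fell by 0.64 in WT. The WT differences of Rab7b, Rab9b, Rab12, Rab24 and Rab29, none past the threshold, ran from -0.21 for Rab7b to 0.53 for Rab24.

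Regulated secretion held the largest share of falls in WT, 6 of 9 genes, against 29.1% of all genes. It had 2 rises and a median of -0.46. In KO its falls, 5 of 9, were as many as those of late endosomes. Rab27a, which docks granules at the plasma membrane, read 7.77, 7.68, 8.08 and 7.64 in WT TER119-, 6.15, 6.15, 6.06 and 6.50 in WT TER119+, 8.04, 7.68, 7.53 and 7.45 in KO TER119-, and 5.88, 5.80 and 5.96 in KO TER119+. TER119+ arrays were all lower, and the KO ones lowest. The difference was -1.58 (SE 0.14, adjusted p = 4.28e-08) in WT and -1.80 (SE 0.15, adjusted p = 2.48e-08) in KO. Rab27b, its relative in platelet and mast cell granules, read 7.34, 8.46, 8.26 and 7.83 in WT TER119-, 7.34, 6.94, 6.88 and 7.12 in WT TER119+, 8.41, 7.44, 6.73 and 8.04 in KO TER119-, and 6.27, 5.96 and 6.59 in KO TER119+. The WT populations met at their edges and the KO ones did not overlap. Rab27b had differences of -0.90 (SE 0.30, adjusted p = 0.0176) in WT and -1.38 (SE 0.32, adjusted p = 0.00175) in KO. The WT call was lost without WT TER119- replicate 2 (-0.74, adjusted p = 0.0645) and without the 3 TER119- arrays that stand apart (-0.73, adjusted p = 0.118). Rab44, a large Rab of granulated immune cells, read 7.91, 7.08, 7.56 and 6.70 in WT TER119-, 5.28, 5.15, 5.56 and 5.60 in WT TER119+, 7.41, 7.46, 7.56 and 6.55 in KO TER119-, and 5.21, 5.28 and 5.24 in KO TER119+. All TER119- arrays were above all TER119+ arrays, and the WT difference was -1.92 (SE 0.24, adjusted p = 3.13e-06). Rab37, a Rab of secretory granules, read 6.13, 6.30, 6.94 and 6.05 in WT TER119-, 5.38, 5.28, 5.36 and 5.55 in WT TER119+, 7.08, 6.52, 6.05 and 6.13 in KO TER119-, and 5.07, 5.22 and 5.21 in KO TER119+. The populations did not overlap, and the differences were -0.96 (SE 0.21, adjusted p = 0.000826) in WT and -1.28 (SE 0.22, adjusted p = 0.000127) in KO. The other genes of this group moved less and were dim. Their WT group means ran from 4.12 to 5.02, below 5.47, the median of all gene means. Rab3b and Rab26 rose by 0.30 and 0.42. Rab3c and Rab3d had differences of -0.46 and -0.23, both called, and Rab3a, not called, of -0.07. Of markers of cell types rich in granules, 16 of 16 neutrophil markers fell in WT TER119+ cells, and of 11 mast cell and basophil markers 7 fell and 1 rose. Of 13 megakaryocyte and platelet markers 2 fell and 3 rose, with a median difference of -0.18 and a list mean of 8.68 in WT TER119- and 8.90 in WT TER119+ cells, so that median and mean differed in sign. The part of these cells in the falls of Rab genes was not tested.

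The endoplasmic reticulum and Golgi genes, 16 in number, had 7 rises, 3 falls and a median of 0.17. Rab1b, which works between the endoplasmic reticulum and the Golgi, read 7.16, 7.17, 7.25 and 6.84 in WT TER119-, 9.30, 9.54, 9.18 and 9.36 in WT TER119+, 7.33, 7.10, 7.22 and 7.43 in KO TER119-, and 9.45, 9.51 and 9.57 in KO TER119+. The populations were widely separated and the genotypes intermixed. It rose by 2.24 (SE 0.11, 4.72-fold, adjusted p = 4.62e-11) in WT and by 2.24 in KO. Its paralog Rab1a, with the same role, read 11.37, 11.23, 11.43 and 11.02 in WT TER119-, 10.99, 11.05, 10.95 and 11.17 in WT TER119+, 11.51, 11.25, 11.35 and 11.19 in KO TER119-, and 11.03, 11.09 and 11.06 in KO TER119+. The populations overlapped in WT and not in KO, and the differences, -0.22 (SE 0.10, adjusted p = 0.0859) in WT and -0.27 (SE 0.11, adjusted p = 0.0577) in KO, did not pass. Rab1a did pass, as a fall, under 3 of 27 other settings in WT (adjusted p down to 0.00657) and under 8 in KO (down to 0.0101), a further quantile normalization and leaving out the 3 TER119- arrays that stand apart among them in both. Single arrays whose loss gave the call were WT TER119- replicate 4 in WT, and KO TER119- replicate 4 and WT TER119- replicates 3 and 4 in KO. Rab43, a Rab of the Golgi, read 6.25, 5.90, 6.35 and 5.58 in WT TER119-, 8.52, 8.52, 8.45 and 8.08 in WT TER119+, 6.16, 6.02, 6.37 and 5.91 in KO TER119-, and 8.60, 8.52 and 8.49 in KO TER119+. Its TER119+ arrays were all higher, and it rose by 2.38 (SE 0.16, adjusted p = 1.52e-09). Rab18, found on the endoplasmic reticulum and lipid droplets, read 8.31, 8.08, 8.53 and 7.78 in WT TER119-, 10.28, 10.10, 10.35 and 10.13 in WT TER119+, 8.42, 8.50, 8.65 and 8.26 in KO TER119-, and 9.88, 10.04 and 9.94 in KO TER119+. The populations did not overlap, and it rose by 2.04 (SE 0.14, adjusted p = 1.9e-09) in WT and 1.496 (SE 0.15, adjusted p = 2.29e-07) in KO. Rab30, a Golgi Rab, read 6.13, 5.74, 6.26 and 5.83 in WT TER119-, 7.22, 7.16, 6.97 and 7.22 in WT TER119+, 6.73, 6.36, 6.37 and 6.20 in KO TER119-, and 6.93, 7.17 and 7.04 in KO TER119+. Its populations did not overlap either. Its rise was 1.15 (SE 0.13, adjusted p = 1.16e-06) in WT and 0.63 (SE 0.14, adjusted p = 0.00124) in KO. Rab34, Rab6a and Rab36, which work at the Golgi, rose by 1.04, 0.70 and 0.51. Rab2b fell. This Golgi Rab read 6.31, 6.26, 6.95 and 5.98 in WT TER119-, 5.19, 5.47, 5.37 and 5.30 in WT TER119+, 6.42, 6.61, 6.26 and 6.09 in KO TER119-, and 5.25, 5.23 and 5.46 in KO TER119+. All TER119+ arrays were below all TER119- arrays, with a WT difference of -1.04 (SE 0.17, adjusted p = 4.78e-05). For its relative Rab2a the probe set used gave 0.23 and a second one -0.39, so no direction can be given. Rab33b and Rab19 also fell, with differences of -0.53 and -0.27.

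Of 5 genes of cilia and other roles 2 fell and 0 rose. These were Rab28 (-0.38, SE 0.09, adjusted p = 0.00302) and Rab40b (-0.36, SE 0.09, adjusted p = 0.00212), a Rab with a domain that binds a ubiquitin ligase. Rab23, an inhibitor of hedgehog signalling, Rab40c and Rab42 had WT differences of -0.19, 0.21 and -0.08 and did not pass. In Rab23 the TER119- arrays ran from 5.58 to 6.53 in WT and from 5.58 to 6.93 in KO, against 5.57 to 6.15 and 6.07 to 6.19 in TER119+ cells, and these ranges overlapped.

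KO cells, whose arrays are separate from those of WT, gave nearly the same population pattern. Again 19 Rab genes rose and 16 fell, against 22.6% and 26.5% of all genes (49% called in all). The arrays did not overlap for 40 of the 59 (background 56.1%). Of the genes called in WT 94.3% were called in KO in the same direction, and 94.3% the other way round, which is 33 genes, 19 higher and 14 lower; over all genes the shares were 82.5% and 88.5%. Rab15 and Rab3d were called in WT alone and Rab4a and Rab7b in KO alone, and their interaction of genotype and population did not pass. Across the 59 genes the differences in WT and KO had r = 0.983, and across all genes r = 0.972; genes are not independent replicates, and the points share a platform and a normalization. By role the KO counts of rises and falls were 6 and 1 of 10 for early endosomes, 4 and 0 of 10 for recycling, 0 and 5 of 9 for late endosomes, 2 and 5 of 9 for secretion, 7 and 3 of 16 for the endoplasmic reticulum and Golgi, and 0 and 2 of 5 for the rest.

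**Figure D3:**
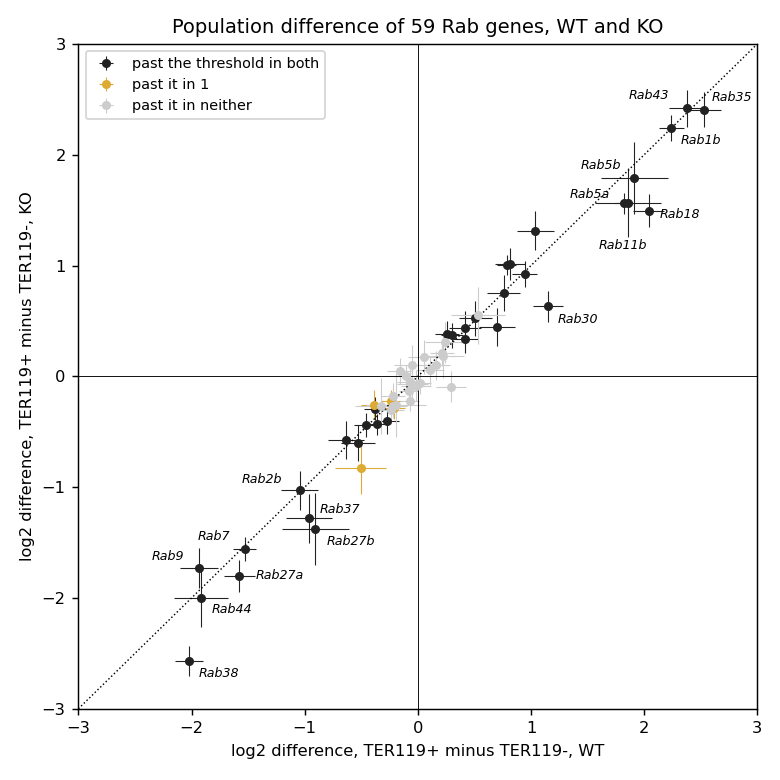
Log2 difference between TER119+ and TER119- cells in KO (vertical axis) against that in WT (horizontal axis) for 59 Rab genes, with standard errors as bars; the dotted line marks equal values and colours show in how many genotypes the adjusted p was under 0.05. Points lie along the line (r = 0.983), with Rab38, Rab18 and Rab30 below it.

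The second question was whether Rab genes differed between KO and WT cells. In TER119+ cells 0 of the 59 Rab genes passed the threshold, against 1.02% of all genes; 5 had an unadjusted p under 0.05 (5.33% of all genes), and the lowest adjusted p was 0.408. The 95% interval of the difference lay within 1.5-fold either way for 48 of the 59 and within 2-fold for 58, so larger changes were outside the interval for most members (84.7% and 98.1% over all genes). These intervals and p-values use 1 spread per gene, estimated from all 15 arrays, so the wider spread of TER119- arrays entered them. For Rab11b the SE of this KO difference was 0.31, with an SD of 0.03 in WT TER119+ and 0.72 in WT TER119- arrays. The median difference was -0.01, as over all genes. In TER119- cells the count was again 0, against 0.0853% of all genes, with 4 at an unadjusted p under 0.05 (7.56%), a lowest adjusted p of 0.622, and intervals within 1.5-fold for 50 and within 2-fold for 59 (83.8% and 98.7% over all genes). The interaction gave 0 as well, against 0.436%, with 3 at an unadjusted p under 0.05 (4.27%) and a lowest adjusted p of 0.694. KO and WT arrays did not overlap for 8 Rab genes in TER119+ cells (background 10.1%) and for 0 in TER119- cells (2.63%).

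**Figure D4:**
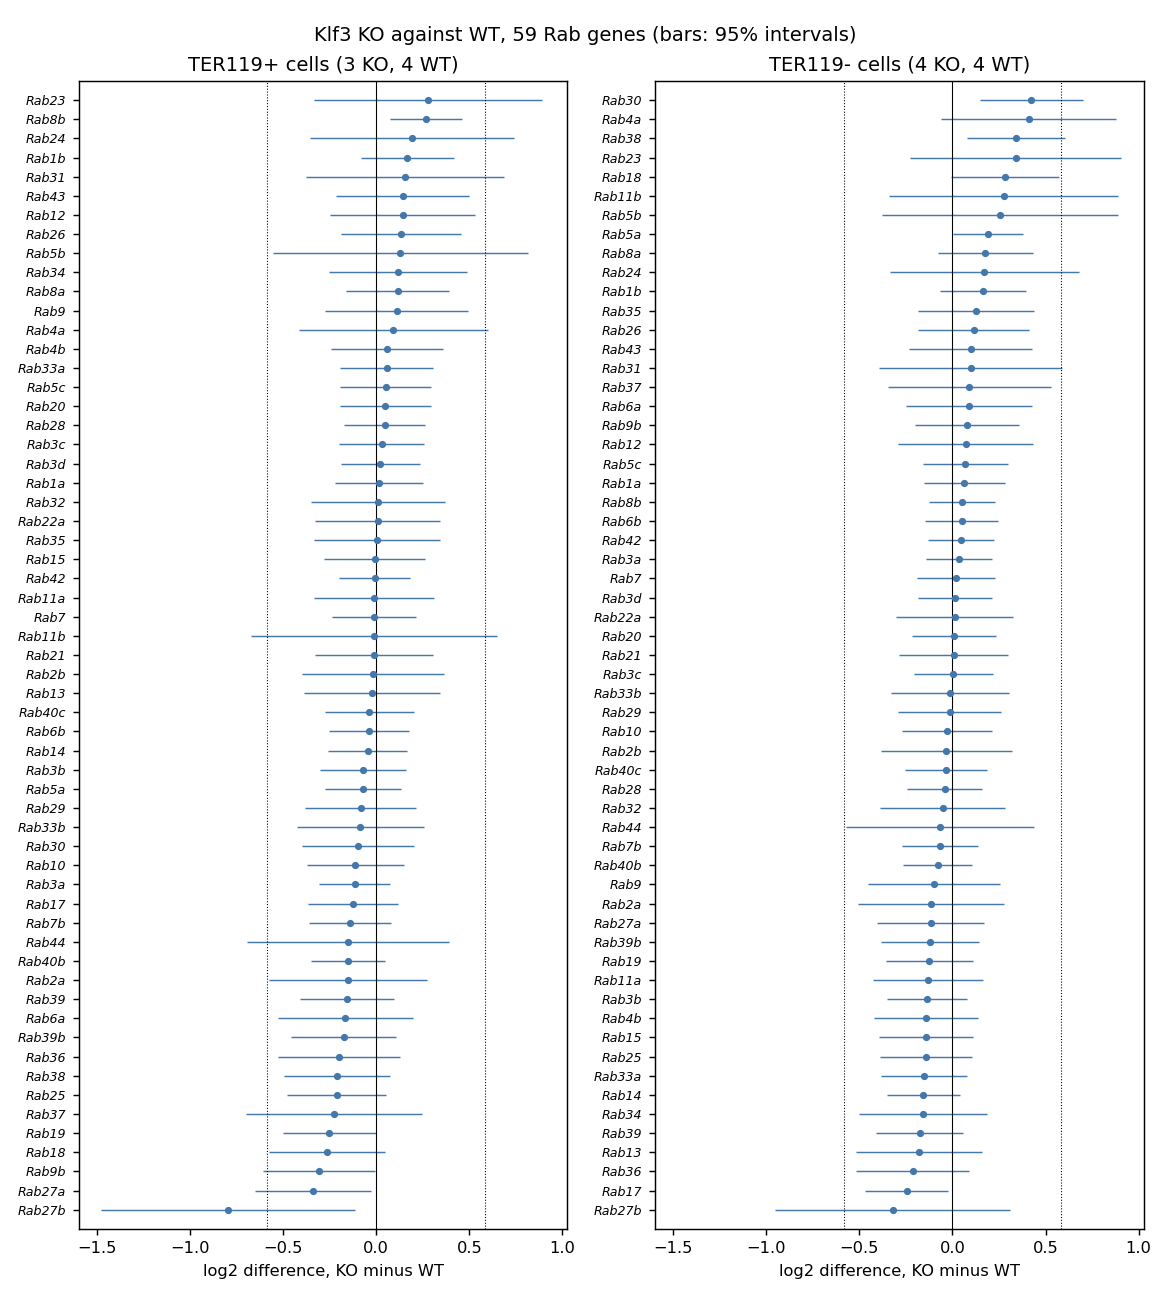
Log2 difference between KO and WT (horizontal axis) for each of 59 Rab genes, ordered by size, in TER119+ cells (left, 3 KO and 4 WT arrays) and TER119- cells (right, 4 and 4); bars are 95% intervals and dotted lines mark 1.5-fold. Most intervals include 0, and those of Rab27b, Rab5b and Rab11b are among the widest.

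The 6 Rab genes with the smallest p in TER119+ cells are described without a call. Rab8b read 10.84, 10.83 and 10.79 in KO and 10.68, 10.39, 10.61 and 10.53 in WT TER119+ cells. All KO arrays were higher, with a difference of 0.27 (SE 0.09, adjusted p = 0.408) and a 95% interval of 0.08 to 0.46; in TER119- cells it read 9.78, 9.86, 9.78 and 9.84 in KO and 9.86, 9.69, 9.83 and 9.69 in WT. Rab27b, whose values are given above, was lower in every KO TER119+ array than in any WT one, with a difference of -0.80 (SE 0.32, adjusted p = 0.701) and an interval of -1.48 to -0.11. Rab27a was also lower in every KO TER119+ array, with a difference of -0.34 (SE 0.15, adjusted p = 0.82). Platelet and megakaryocyte transcripts moved with both: the mean of 13 markers (of 18 listed) was 8.21, 8.05 and 8.43 in KO and 8.94, 8.79, 8.80 and 9.06 in WT TER119+ arrays, Pf4 averaged 10.27 and 11.13, and Itga2b 8.11 and 8.81. None of the 13 passed the threshold alone. In TER119- cells the marker mean was 9.10, 8.04, 7.59 and 8.90 in KO and 7.99, 8.85, 9.21 and 8.68 in WT, and Rab27b was lowest in KO replicate 3 and WT replicate 1, the arrays where that mean was also lowest of their group. Rab27a was instead lowest in KO replicate 4 and WT replicate 4, where the mean was 8.90 and 8.68. The part of these cells in the Rab27 differences was not tested. Rab27b was the only Rab gene called in this comparison under any of the 27 other settings, and that under 1, with only the compared groups fitted (adjusted p = 0.0396).

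Rab9b, a relative of Rab9, read 4.87, 4.79, 5.19 and 4.96 in WT TER119-, 5.14, 4.96, 5.55 and 5.34 in WT TER119+, 5.16, 4.90, 5.05 and 5.01 in KO TER119-, and 4.85, 5.15 and 4.81 in KO TER119+. WT and KO TER119+ arrays overlapped, and the difference was -0.31 (SE 0.14, adjusted p = 0.905). Rab19 read 4.51, 4.66, 4.43 and 4.80 in WT TER119-, 4.41, 4.20, 4.53 and 4.18 in WT TER119+, 4.43, 4.43, 4.61 and 4.45 in KO TER119-, and 4.02, 4.25 and 3.97 in KO TER119+. Its groups overlapped too, with a KO difference in TER119+ cells of -0.25 (SE 0.12, adjusted p = 0.938). Rab18 had opposite signs in the populations: -0.26 (SE 0.15, adjusted p = 1) in TER119+ cells, where the KO arrays were all lower, and 0.28 (SE 0.14, adjusted p = 0.655) in TER119- cells, where they overlapped. Its interaction, -0.55 (SE 0.20, adjusted p = 0.852), did not pass, nor did those of Rab38 (-0.55, adjusted p = 0.694) and Rab30 (-0.52, adjusted p = 0.872).

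In TER119- cells the smallest p values were those of Rab30 (0.42, SE 0.13, adjusted p = 0.622) and Rab38 (0.34, SE 0.12, adjusted p = 0.644). Both were higher in KO on average, and for both the highest WT array lay within the KO range. Rab17 read 4.61, 4.67, 4.39 and 4.73 in WT TER119-, 4.72, 4.85, 4.83 and 5.05 in WT TER119+, 4.47, 4.30, 4.31 and 4.34 in KO TER119-, and 4.55, 4.91 and 4.75 in KO TER119+. KO TER119- arrays were low with some overlap, and the difference was -0.25 (SE 0.11, adjusted p = 0.653). Rab5a differed by 0.19 (SE 0.09, adjusted p = 0.655) and Rab4a by 0.41 (SE 0.22, adjusted p = 0.655). WT replicates 2 and 4 set the low WT values of Rab4a; these are among the arrays that stand apart, and there are 2 such arrays in WT and 1 in KO. The spread limited what could be seen here: the median SD of the Rab genes was 0.22 in WT TER119- and 0.16 in KO TER119- arrays, against 0.12 and 0.09 in WT and KO TER119+ arrays, and the largest were 0.72 for Rab11b in WT and 0.73 for Rab27b in KO.

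The machinery that turns Rabs over was read from 153 measured genes in 4 lists. Between WT populations 51 of these rose and 46 fell, and in KO 49 and 41. The shares called, 63.4% in WT and 58.8% in KO, stood against 52.6% and 49% of all genes. By direction, 23.5% of all genes rose and 29.1% fell in WT, and 22.6% and 26.5% in KO. The counts by list between populations are given for WT. Of 10 genes of the membrane cycle 0 rose and 5 fell, with a median of -0.94. Chml, an escort protein that presents new Rabs for lipid attachment, fell most (-2.09, SE 0.24, adjusted p = 1.61e-06), followed by Rabac1, a membrane protein that receives Rabs (-1.90, SE 0.12, adjusted p = 1.11e-09), and the Golgi protein Yipf1 (-1.82, SE 0.16, adjusted p = 4.81e-08). Gdi2, a GDP dissociation inhibitor, fell by 1.49. The 44 exchange factor genes had 17 rises and 11 falls and a median of 0.21. The largest rises were those of Rab3il1, an exchange factor related to Rabin8 (4.38, SE 0.10, adjusted p = 1.47e-14), Dennd2c, of the DENN family (3.95, SE 0.20, adjusted p = 5.38e-11), and Trappc10, a subunit of the TRAPPII complex (2.80, SE 0.19, adjusted p = 2.41e-09). The largest falls were those of the Rab5 exchange factor Rin3 (-1.07) and the TRAPP subunits Trappc3 (-0.87) and Trappc2l (-0.84). The 39 GAP genes had a median of 0.13 and 14 rises, led by Tbc1d24 (3.39), Tbc1d2b (2.00) and Evi5 (1.97), and 10 falls, led by Tbc1d19 (-1.43), Tbc1d5 (-1.14) and Tbc1d8 (-1.06). The 60 effector genes had 20 rises and 20 falls and a median of -0.08. Wdr91 and Wdr81, partners in endosome maturation, rose by 2.70 and 2.45 and Ehbp1l1, a Rab8 effector, by 2.39, while the Rab29-linked kinase Lrrk2 (-2.17), the motor Myo5a (-2.08) and the Rab5 effector Appl1 (-1.65) fell.

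Between KO and WT TER119+ cells 5 of 60 effector genes rose and 0 fell, against 0.903% and 0.115% of all genes. Of exchange factor, GAP and membrane cycle genes 0 were called (6 of 44, 1 of 39 and 1 of 10 had an unadjusted p under 0.05, against 5.33% of all genes). The lists were chosen with earlier results of these data known, and whether they differed from each other was not tested. The lowest adjusted p outside the effectors was that of the exchange factor gene Dennd6a, named after its values were seen, which read 8.41, 8.33 and 8.43 in KO and 7.83, 7.99, 7.76 and 7.89 in WT TER119+ cells. These arrays did not overlap, and the difference, 0.52 (SE 0.13, adjusted p = 0.0838), was of the size of the smallest called among the effectors. In TER119- cells 0 of the 153 were called, with 9 at an unadjusted p under 0.05, against 0.0853% and 7.56% of all genes. Unc13d, also called Munc13-4, primes granules for release with Rab27a. It read 7.33, 7.12 and 7.42 in KO and 6.27, 6.05, 6.06 and 5.84 in WT TER119+ cells, against 5.81, 5.81, 5.86 and 5.47 in KO and 5.63, 5.35, 5.66 and 5.43 in WT TER119- cells. Every KO TER119+ array was above every other array. The KO difference was 1.24 (SE 0.13, 2.35-fold, adjusted p = 2.11e-05) in TER119+ and 0.22 (adjusted p = 0.655) in TER119- cells, and the interaction was 1.01 (SE 0.17, adjusted p = 0.0107). Without KO TER119+ replicate 3 the interaction was 0.95 (adjusted p = 0.052). The KO TER119+ arrays of its partner Rab27a, given above, were below the WT ones, but that difference was not called. Such a lack of overlap between KO and WT TER119+ arrays was seen for 10.1% of all genes.

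**Figure D5:**
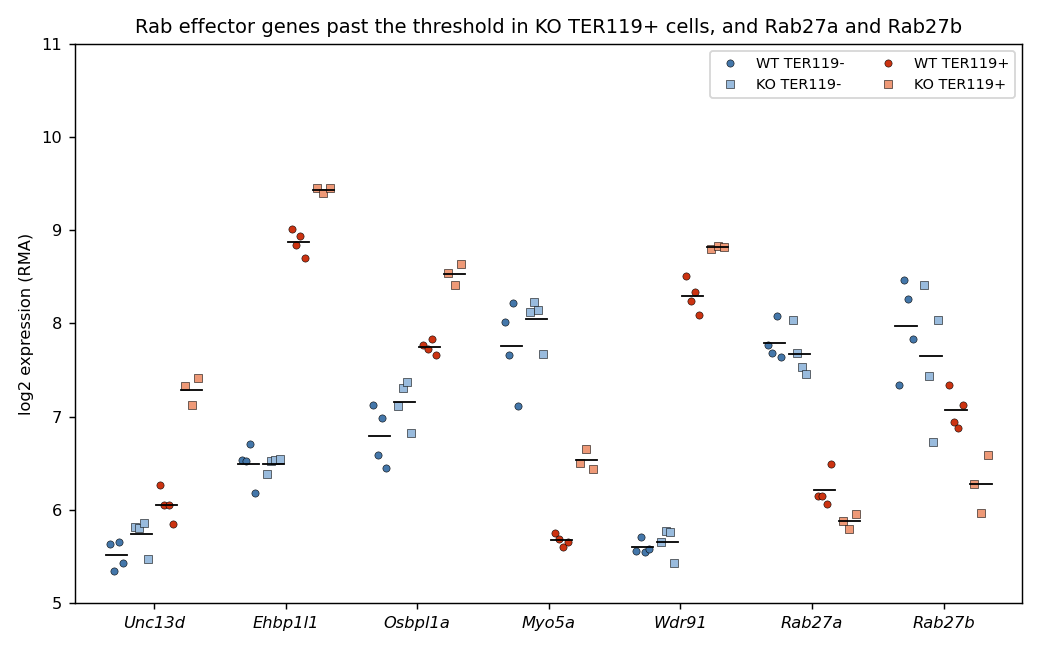
Log2 RMA values (vertical axis) of each array for the 5 Rab effector genes that rose in KO TER119+ cells and for Rab27a and Rab27b; circles are WT, squares KO, blue TER119-, red TER119+, and bars are group means. KO TER119+ arrays lie above WT TER119+ arrays for the 5 effectors and below them for Rab27a and Rab27b, which were not called.

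The other 4 effectors rose less. Osbpl1a, or ORP1L, a sterol sensor that binds Rab7 on late endosomes, read 8.54, 8.41 and 8.64 in KO and 7.77, 7.73, 7.84 and 7.66 in WT TER119+ cells, without overlap, and rose by 0.78 (SE 0.16, adjusted p = 0.0181). Wdr91, which acts with Rab7 in the change from early to late endosome, read 8.80, 8.83 and 8.82 in KO and 8.51, 8.24, 8.33 and 8.10 in WT and rose by 0.52 (SE 0.11, adjusted p = 0.0243). Ehbp1l1 read 9.45, 9.40 and 9.45 in KO and 9.01, 8.84, 8.94 and 8.71 in WT and rose by 0.56 (SE 0.12, adjusted p = 0.0237). Myo5a, the motor that Rab27a engages through an adaptor, read 6.50, 6.66 and 6.44 in KO and 5.75, 5.69, 5.60 and 5.65 in WT and rose by 0.86 (SE 0.20, adjusted p = 0.0494). None of these groups overlapped in TER119+ cells. In TER119- cells the KO differences were 0.37 for Osbpl1a, 0.06 for Wdr91, 0.01 for Ehbp1l1 and 0.29 for Myo5a, and their interactions did not pass. Each of these 4 calls was lost when some single arrays were left out. For Osbpl1a these were KO TER119+ replicates 1 and 3 and WT TER119+ replicates 2 and 4 (adjusted p up to 0.132), for Wdr91 each KO TER119+ replicate and WT TER119+ replicates 2, 3 and 4 (up to 0.126), and for Ehbp1l1 each KO TER119+ replicate and WT TER119+ replicates 2 and 4 (up to 0.125). For Myo5a they were every TER119+ array, KO TER119- replicates 1, 2 and 3 and WT TER119- replicate 2 (up to 0.281). The count of 5 then ranged from 1 to 6. Rab7 itself differed by -0.01 and Rab8a by 0.11 between KO and WT TER119+ cells, with intervals of -0.24 to 0.22 and -0.16 to 0.39.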

How the data were processed

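The authors deposited 1 table of log2 expression values for 35399 probe sets and 15 arrays, made with RMA and Partek per the submitters' processing notes (versions not given in the sources used here, nor whether all arrays were processed together). The values ran from 2.91 to 14.26. The platform's table named 21789 probe sets with 1 symbol, 1621 had several and entered no test, and the probe set with the highest mean was kept per gene. All 59 Rab genes matched a RefSeq Entrez identifier and 0 symbols changed.

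From these values limma 3.58.1 under R 4.3.3 fitted a mean per group to all arrays, with no filter and no covariate (11 residual and 4.91 prior degrees of freedom, prior SD 0.173). Adjusted p is 2-sided, Benjamini-Hochberg over 19938 genes, threshold 0.05. The scripts were tested on simulated data. The number of arrays limits the precision. Arrays of a group differed from each other with an SD of at least 0.259, so none was a duplicate.

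Members and lists were chosen with earlier results of these data known, and the printed promoters after their values were seen. Genes named in full were the 6 members of smallest p in each KO comparison, the 8 with the largest rise and fall between WT populations, Rab5a, Rab7, Rab11a, Rab1a, Rab27a and Rab27b, and pathway genes past the threshold in KO. For each pathway list the 3 largest population differences each way were named, and Gdi2 and Dennd6a were named after their values were seen. Alternatives were other probe sets, filters, normalizations, fits, covariates, a replicate block, a 1.5-fold limit and leaving out arrays.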

Additional observations from a re-analysis of the deposited data

Results flagged for a closer look

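In 6 of 84 groups of 4 arrays an array stood far from the other 3 by Dixon's test, and chance alone gives about 1 in 20. Rab35 in WT TER119+ replicate 4 was 8.84, where the others lay from 9.02 to 9.05, and Rab43 in the same array was 8.08 against 8.45 to 8.52. Rab44 in KO TER119- replicate 4, an array that stands apart, was 6.55 against 7.41 to 7.56, and Unc13d there was 5.47 against 5.81 to 5.86. Rab19 in KO TER119- replicate 3 was 4.61 against 4.43 to 4.45. Ehbp1l1 in KO TER119- replicate 1 was 6.38 against 6.52 to 6.54.

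The KO difference of Unc13d was larger in TER119+ than in TER119- cells by 1.01 on the log2 scale, by the test of the interaction.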

How the results depend on the processing

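Of 2314 comparisons of 86 named gene differences with 27 other settings, 2247 kept direction and side of the threshold, 42 lost a call, 15 gained one (11 of them Rab1a between populations) and 10 changed sign. The setting without the 3 TER119- arrays that stand apart was chosen from the values of these same data. Counts of Rab genes called between populations, 35 in each genotype, fell to 23 in each with a 1.5-fold limit and ranged from 32 to 37 in WT and from 30 to 38 in KO when single arrays were left out. The count of Rab genes called in KO TER119+ cells, 0, became 1 where only the compared groups were fitted. The count of 5 pathway genes called there became 3 with array medians subtracted, 8 after a further quantile normalization, 2 with an intensity trend and robust spread, 8 with only the compared groups, 10 without the 3 TER119- arrays that stand apart, and 3 with the 1.5-fold limit, and ran from 1 to 6 without single arrays. Their interaction count of 1 became 3 without those 3 arrays and ran from 0 to 2 without single arrays. Leaving out TER119- arrays cannot move a KO difference in TER119+ cells, only its SE and adjusted p, since the spread is shared. With only the compared groups, the Rab27b difference stayed at -0.80 while its SE went from 0.32 to 0.16. Other causes were not tested.

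With the replicate number as a block, 35 Rab genes were called between WT populations and 33 in KO, and 2 pathway genes in KO TER119+ cells. The deviations of same-numbered arrays from their group means correlated at r from -0.384 to 0.654, with some below 0 in each comparison, so the numbers were not taken as a pairing.

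Signs changed only where differences were near 0. For Rab11a between WT populations the value was -0.0034 with sex as a factor and from -0.041 (without WT TER119- replicate 1) to 0.11 without single arrays. For Ehbp1l1 between KO and WT TER119- cells it was -0.039 after a further quantile normalization, -0.069 with the hepatocyte list as a covariate, -0.15 without the 3 arrays, and from -0.095 to 0.083 without single arrays. For Wdr91 there it was -0.020 with the hepatocyte covariate. The spread of the TER119- arrays and the lack of detection calls limit what could be seen for dim genes.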
